A study of Mus musculus with 6 samples.

Results

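The genes described here build and use the synaptonemal complex, the protein scaffold that holds homologous chromosomes together in early meiotic prophase. They are Sycp1, Sycp2, Sycp3, Syce1, Syce2, Syce3, Hormad1, Hormad2 and Dmc1, taken from a table of 25353 genes by symbol, and all 9 were found there. RNA came from mouse germinal vesicle (GV) oocytes, which are arrested at the end of meiotic prophase. There were 6 libraries of full-length cDNA (Smart-Seq2), 3 wild type (WT) and 3 labelled knockout (KO), each from 5 pooled oocytes of C57BL/6J mice. The mice were 8 weeks old according to the protocol and the series' design text, whereas the age field reads P1. The KO genotype is Mfn1-/- in the sample labels and Mfn2-/- in the series' title and design text. Both are mitofusins, proteins that fuse mitochondria. How and in which cells the gene was deleted is not given in the sources used here, nor which mouse gave which pool, so p-values measure the spread between pools, which may be technical.

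Mfn2 stood at 25.5, 38.1 and 32.3 normalized read counts in WT against 5.25, 5.28 and 4.50 in the libraries labelled KO, while Mfn1 had 298.5 to 363 in WT and 379 to 398 in KO. Library depth ran from 6450191 to 7992598 reads on genes. The oocyte markers checked, among them Gdf9 and Zp3, were all 12 in the table, and their summed normalized counts ran from 136272 to 169037 in WT and from 99061 to 146911 in KO. Theca and stroma markers, 8 of 11 in the table, summed to 46.5 to 2026 in WT and to 16.8 to 62.1 in KO, with the highest sum in WT replicate 1. Of these 8, Cyp11a1, Hsd3b1 and Dcn were above 0 in all 6 libraries, Pdgfra was at 0 in 1 library, Acta2 in 3, Col1a1 in 4, and Col1a2 and Col3a1 in 5, and the 3 collagen genes were at 0 in all 3 KO libraries. The 12 granulosa markers, all in the table, summed to 626 to 794 in WT and 522 to 659 in KO. Of them 8 were above 0 in all 6 libraries, with Cyp19a1, the aromatase gene, highest at 301 to 445, while Inhbb was at 0 in 2 libraries and Foxl2, Amh and Wt1 in 4 each. Immune markers, 9 of 10 in the table, summed to 394 to 469.6 in WT and 492 to 630.3 in KO. That the KO sums lay above the WT sums reflects C1qb, a complement gene, at 331 to 430 in WT and 453 to 592 in KO. The rest of the list did not share this order. Cd68 was lower in KO, at 18.9 to 21.4 in WT and 8.45 to 14.4 in KO, and Laptm5 overlapped between the groups. Of these 9, Cd68, C1qb and Laptm5 were above 0 in all 6 libraries and 5 were at 0 in all 3 KO libraries. Endothelial markers, 6 of 7 in the table, summed to 192 to 246 in WT and 168 to 256 in KO. Of these 6, Pecam1, Tek and Kdr were above 0 in all 6 libraries, with Pecam1 highest at 138 to 213. Cdh5, Egfl7 and Esam were at 0 in 5 libraries each and above 0 in WT replicate 1 alone. The part of these markers in the values below was not tested. WT replicate 1 was the highest or the lowest library for 0 of the 8 genes other than Syce3, which had at most 1 read per library. This rank does not measure the part of the markers.

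In meiotic prophase each pair of sister chromatids is folded along a protein axis, and SYCP2 and SYCP3 form this axis, called the lateral element once chromosomes pair. SYCP1 spans the gap between paired axes, and SYCE1, SYCE2 and SYCE3 form the central element that holds the SYCP1 ends together. HORMAD1 and HORMAD2 sit on unpaired axes, and DMC1 is the meiosis-specific recombinase that carries out strand exchange at programmed DNA breaks. In female mice these steps take place before and around birth, and the complex has come apart by the time oocytes enter the long dictyate arrest. Adult GV oocytes are thus past the stage at which the complex is assembled.

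The 9 genes differed widely in their level, and no difference between KO and WT passed the test for any of them. Per kilobase of exon, the normalized read count averaged over the 6 libraries ran from 0.599 for Syce3 to 2403 for Syce2. Of the 8 genes that could be tested, 0 were called higher or lower in KO by limma (adjusted p under 0.05), against 3.28% of the 18762 genes tested, and 0 had an unadjusted p under 0.05, against 18% of all genes. The libraries of the groups overlapped for each of the 8 tested genes and for Syce3, which was not tested. They did not overlap for 23.2% of all genes tested. Whether 0 of 8 differs from that share was not tested. edgeR and DESeq2 on recovered reads each tested 7 of the 9 and also called 0, and at an unadjusted p under 0.05 each had 0. Those tools called 6.03% and 6.84% of the genes they tested, and 22.2% and 19.2% had an unadjusted p under 0.05. In bulk RNA from pools of cells, how many cells of a pool hold a transcript and how much each holds cannot be told apart.

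**Figure D1:**
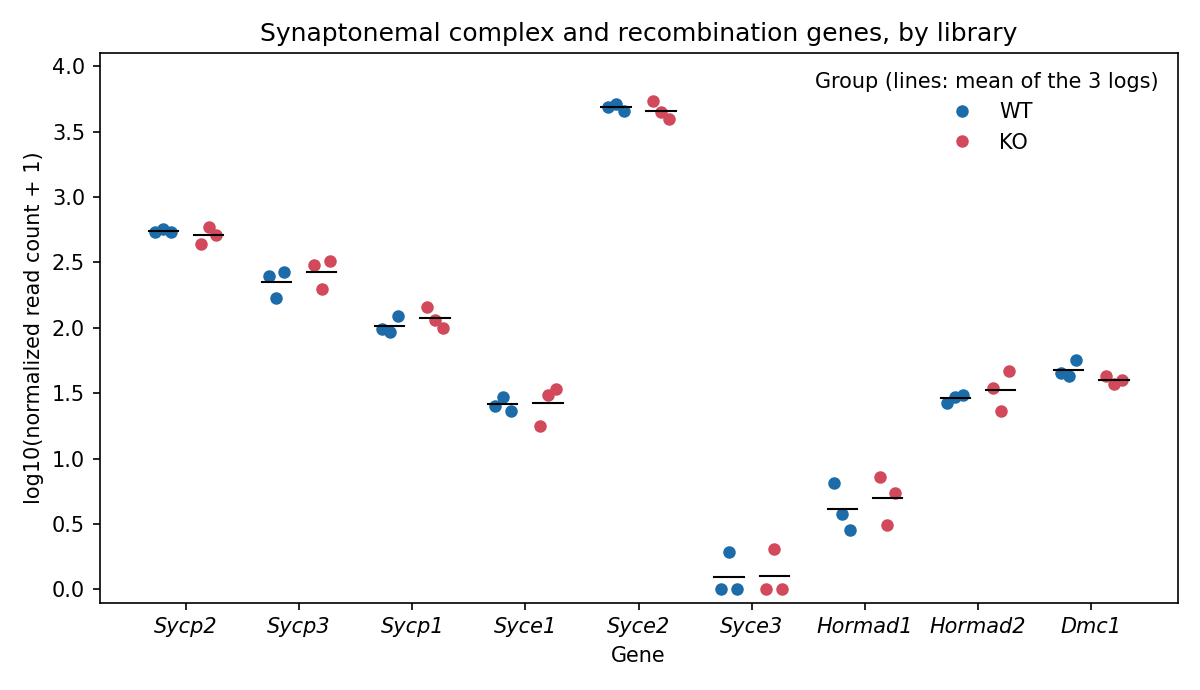
Normalized read counts of the 9 genes in each library, as log10(normalized read count + 1). Points are single libraries (blue WT, red KO), black lines the mean of the 3 logs of a group. The KO and WT points of each gene overlap, with Syce2 highest and Syce3 at or next to 0.

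The start of transcription is shown for the genes at the ends of this range of levels, with the 250 bases before the first RefSeq start (GRCm38.p6), 5′ to 3′ on the strand of the gene. For Syce2 this is chr8:84871861-84872110 on the plus strand, and for Syce3 chr15:89410504-89410753 on the minus strand. Capitals mark TCCCGC or its reverse complement GCGGGA, letters found in the sites of E2F factors. E2F6 is known to keep meiotic genes silent in somatic cells. CACGTG, the E-box letters bound by MAX and its partners, was also searched, and would be in capitals too.
Syce2: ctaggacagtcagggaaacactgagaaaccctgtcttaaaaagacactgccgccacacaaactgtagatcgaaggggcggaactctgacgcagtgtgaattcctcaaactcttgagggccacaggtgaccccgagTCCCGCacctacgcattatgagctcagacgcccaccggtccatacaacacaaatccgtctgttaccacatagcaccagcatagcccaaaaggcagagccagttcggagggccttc
Syce3: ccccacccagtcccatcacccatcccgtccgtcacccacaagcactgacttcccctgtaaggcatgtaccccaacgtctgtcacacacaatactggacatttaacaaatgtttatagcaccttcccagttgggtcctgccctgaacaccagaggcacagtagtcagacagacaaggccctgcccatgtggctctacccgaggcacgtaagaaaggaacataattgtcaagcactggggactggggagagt
The Syce2 stretch holds 11 CG dinucleotides and the Syce3 stretch 5. Both genes also have a second RefSeq start. In the 300 bases around each start, Syce2 has 19 at the first and 33 at the second. Syce3 has 5 at the first and 15 at the second.

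Over windows of 300 bases (250 before and 50 after each start), CACGTG was found for 4 of the 9 genes, and in the windows of 8.09% of all 27025 genes with a promoter in the RefSeq table. TCCCGC on either strand was found for 5 of the 9 and for 22.1% of all genes, and the 2 motifs share no overlapping match in these windows. The genes with CACGTG were Sycp1, Sycp3, Hormad1 and Syce2, and those 4 also hold TCCCGC, as does Dmc1. The matches with CACGTG are shown because they occur both at the gene of highest level, Syce2, and at Hormad1, which had 2 to 6 reads per library. Capitals mark the match.
Sycp1: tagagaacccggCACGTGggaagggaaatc
Sycp3, farther site: gccgttggctccCACGTGagaacgggcatg
Sycp3, nearer site: acgggcatggagCACGTGctaggaggcggg
Hormad1, farther site: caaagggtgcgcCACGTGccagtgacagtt
Hormad1, nearer site: atgcgcactgcgCACGTGctgaccggagcg
Syce2: cgtttcattcagCACGTGctcggggcgggg
They lie at chr3:102936177-102936206 (minus strand), chr10:88459511-88459540, chr10:88459532-88459561, chr3:95559608-95559637, chr3:95559645-95559674 and chr8:84872158-84872187 (all plus). The Syce2 match is 88 bases before the second RefSeq start of that gene and lies downstream of the first. All 12 windows of the 9 genes held between 5 and 33 CG dinucleotides, with a median of 7 over all windows in the table. Only the first Syce3 window lay below that median. Both motifs contain CG, and their shares were not compared among windows of like CG count, so the shares above do not measure enrichment. Whether any factor binds these letters in oocytes was not measured.

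Neither lateral element gene was called higher or lower in KO. Sycp2 (chromosome 2, 178345293 to 178407685, minus strand, GRCm38) had 537, 565 and 540.2 normalized counts in WT and 438, 585 and 512 in KO (here and below in the order of replicates 1 to 3). Its lowest and its highest value were both in KO. On the log2 scale KO minus WT was -0.11 (SE 0.13; adjusted p = 0.722 in limma), with a 95% confidence interval for the KO to WT ratio of 0.772 to 1.12, computed on the log2(value + 1) scale for each gene by itself.

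Sycp3 (chromosome 10, 88459569 to 88473236, plus strand) had 248, 166 and 267 normalized counts in WT and 300.4, 199 and 320.1 in KO. WT replicate 2 was lowest and KO replicate 2 next, while KO replicates 1 and 3 lay above all WT values. On the log2 scale KO minus WT was 0.26 (SE 0.20; adjusted p = 0.537 in limma), and the interval of the ratio was 0.898 to 1.60. Of its exon bases, 52.2% also lie in exons of Chpt1, a phospholipid synthesis gene on the other strand, and the library kit keeps no strand, so the Sycp3 counts are uncertain. Chpt1 itself had 17.7 to 38.8 normalized counts.

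Sycp1, the transverse filament gene (chromosome 3, 102818499 to 102936100, minus strand), had 97.6, 92.1 and 122 normalized counts in WT and 144, 113 and 98.9 in KO. The highest library was KO replicate 1, and KO replicate 3 fell among the WT values. The log2 difference of 0.18 had an SE of 0.19 and an adjusted p of 0.681 in limma, with an interval of the ratio of 0.856 to 1.51. Of 135 windows of 75 bases along its transcript, 4.44% also match the processed pseudogene Sycp1-ps1.

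The 3 central element genes were far apart in level although their proteins work together. Syce2 (chromosome 8, 84872111 to 84888221, plus strand) had 4844, 5169 and 4553 normalized counts in WT and 5375, 4466 and 3972 in KO, the highest and the lowest library both being KO. Its log2 fold change of -0.09 had an SE of 0.12 and an adjusted p of 0.765 in limma, and the interval of the ratio was 0.795 to 1.12. The gene overlaps Gcdh on the other strand, but the exons of the 2 genes share 0 bases in GENCODE, and 0 of its 65 windows match another gene. Syce2 made up 82.6% of the summed normalized counts of the 9 genes.

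Syce1 (chromosome 7, 140777229 to 140787852, minus strand) had 24.4, 28.8 and 22.2 normalized counts in WT and 16.8, 29.6 and 33.3 in KO. The KO values enclosed the WT values. The log2 difference of 0.03 had an SE of 0.33 and an adjusted p of 0.978 in limma, and with 16 to 37 reads per library the interval of the ratio reached from 0.628 to 1.66. Syce3 (chromosome 15, 89390174 to 89410503, minus strand) had 1 read in WT replicate 2, 1 in KO replicate 2 and 0 in the other libraries. At this depth a library with 0 reads could still hold up to 3, worth 2.70 to 3.33 normalized counts, a limit for counting error only. Syce3 was the member that did not pass the filter on low values and was not tested.

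The axis genes of the HORMA domain family differed in level, with Hormad1 low and Hormad2 near the middle of the protein-coding genes. Hormad1 (chromosome 3, 95559677 to 95587671, plus strand) had 5, 3 and 2 reads in WT and 6, 2 and 5 in KO, or 1.85 to 6.30 normalized counts. Its log2 fold change of 0.27 (SE 0.58, limma adjusted p = 0.858) had an interval of the ratio from 0.516 to 2.83, the only tested member whose interval passed 2-fold. Of its 58 windows, 27.6% match processed pseudogenes, Gm15529 and Gm7167, and Gm15529 had 0 to 4.20 normalized counts in the table, so the Hormad1 counts are uncertain. Hormad2 (chromosome 11, 4345814 to 4441105, minus strand) had 25.5, 28.8 and 29.5 normalized counts in WT and 33.6, 22.2 and 45.9 in KO. The WT values lay within the KO values. The log2 difference of 0.21 had an SE of 0.31 and an adjusted p of 0.783 in limma, with an interval of the ratio of 0.734 to 1.83.

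Dmc1, the recombinase (chromosome 15, 79561500 to 79605084, minus strand), had 44.4, 41.8 and 55.4 normalized counts in WT and 42.0, 35.9 and 38.7 in KO. KO replicate 1 lay just above WT replicate 2, so the groups overlapped there alone. Its log2 fold change of -0.27 had an SE of 0.25 and an adjusted p of 0.636 in limma, with an interval of the ratio of 0.578 to 1.20. Counting gives a coefficient of variation of 15.1% at its mean of reads, and the spread within groups was 12.9%.

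**Figure D2:**
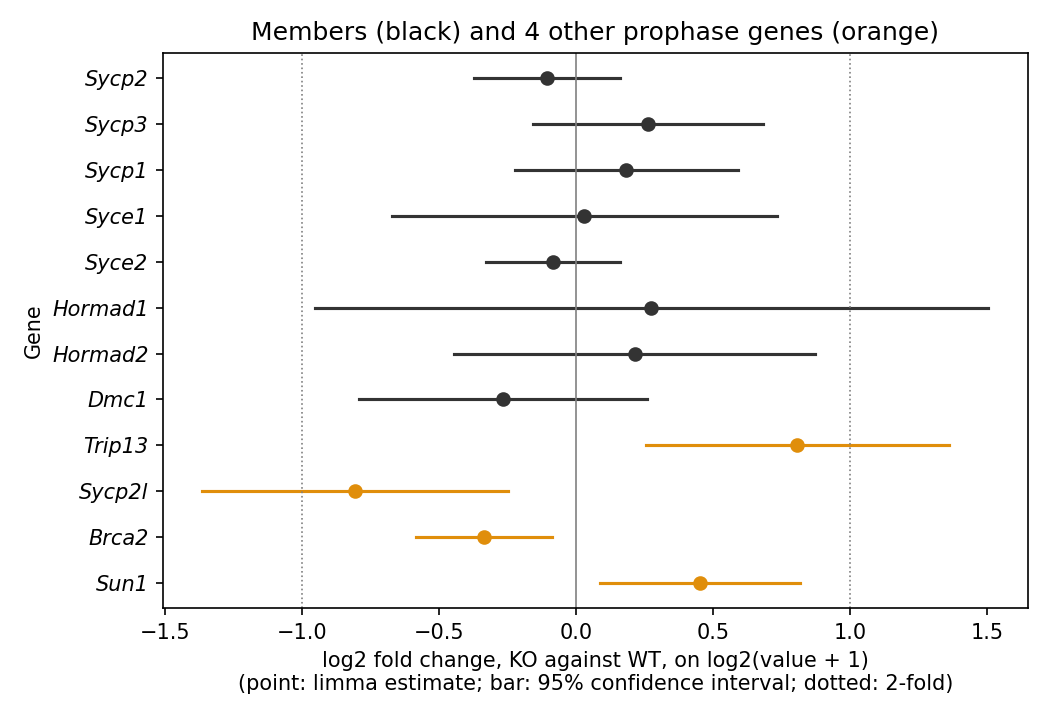
Log2 fold change of KO against WT on log2(value + 1) for the 8 tested genes (black) and for the 4 other prophase genes of smallest p whose mean normalized count reached 10 (orange). Points are limma estimates and bars 95% confidence intervals, not adjusted for the number of genes. All black bars cross 0, and that of Hormad1 also passes the 2-fold line.

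The spread between libraries of a group was compared with what counting alone gives. The within-group coefficient of variation was 11.6% for Syce2, where counting alone gives 1.45%, and 23.8% for Sycp3, where it gives 6.28%. For Hormad1 the spread was 52.3% against 51.1% from counting. The median log2 fold change over the 8 tested genes was 0.11, with 5 above 0 and 3 below, beside -0.01 over all genes tested.

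Ordered by normalized count per kilobase of exon, Syce2 (2403) was followed by Sycp3 (198), Sycp2 (88.7), Sycp1 (31.3), Syce1 (17.7), Dmc1 (17.7), Hormad2 (11.3), Hormad1 (2.23) and Syce3 (0.599). The ranges over libraries overlapped between Syce1 and Dmc1, between Dmc1 and Hormad2, and between Hormad1 and Syce3. Whether those neighbours differ was not tested. Syce2 stood 12.1 times above Sycp3, and its lowest library, at 2018 per kilobase, lay above the highest of Sycp3, at 253. Among the 16586 protein-coding genes of the table that have a length in GENCODE, each with at least 1 read in the 6 libraries together, 99.1% had a lower level per kilobase than Syce2, 88.7% than Sycp3, 53.3% than Hormad2, 33.3% than Hormad1 and 20.7% than Syce3.

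**Figure D3:**
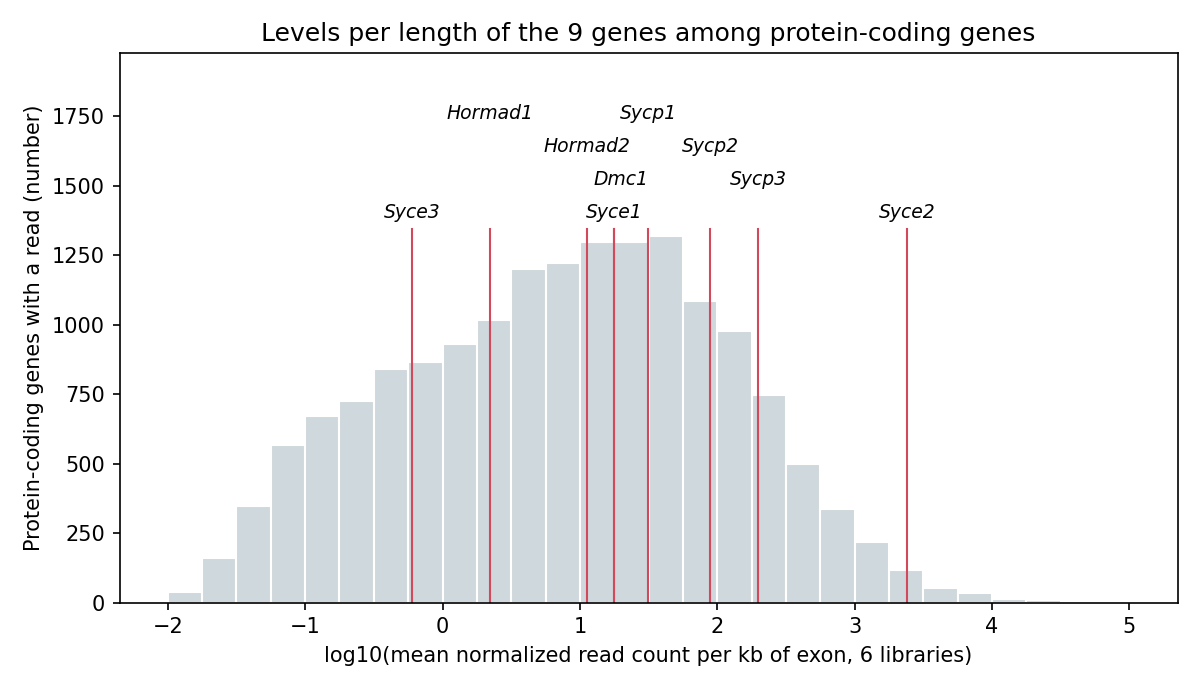
Mean normalized read count per kilobase of exon over the 6 libraries, as log10, for protein-coding genes (grey histogram, number of genes per bin) and for the 9 genes (red lines). Syce2 lies near the upper end at 2403 per kilobase, Hormad1 and Syce3 in the lower part.

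Across the 6 libraries the pattern of Syce2, highest in KO replicate 1 and lowest in KO replicate 3, was most like those of Mrps16, a mitochondrial ribosomal protein gene (Pearson r = 0.990), Oosp2, an oocyte-secreted protein gene (0.988), and Fam208b (0.987). These are the highest of 9610 genes compared over the same 6 libraries, and the values of r are descriptions.

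Other genes of early meiotic prophase were examined as a list of 51, of which 47 were in the table and 43 were tested. In limma 0 rose and 0 fell, beside 3.28% called of all genes, and 6 of the 43 had an unadjusted p under 0.05, beside 18% of all genes. edgeR called 0 of 35, with 6 at an unadjusted p under 0.05, beside 6.03% and 22.2% of all genes it tested. DESeq2 called 0 of 30, with 5 at an unadjusted p under 0.05, beside 6.84% and 19.2%. In limma the median log2 fold change of the 43 was -0.05, with 19 above 0 and 24 below. The groups did not overlap for 5 of the 43, beside 23.2% of all genes.

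The 2 genes of smallest p in limma in this list, both partners of the complex, lay on opposite sides of 0 and did not pass the test. Trip13, the ATPase that removes HORMAD proteins from paired axes, had 37.7, 27.9 and 34.2 normalized counts in WT and 62.0, 45.4 and 71.0 in KO, with no overlap. The log2 difference of 0.81 (SE 0.26) gave a limma adjusted p of 0.101, and 0.064 in edgeR and 0.119 in DESeq2. Sycp2l, an oocyte paralog of Sycp2 that marks centromeres in mouse dictyate oocytes, had 332, 268 and 343.5 in WT and 95.6, 256 and 232 in KO, also with no overlap. Its log2 fold change of -0.80 had an SE of 0.26 and an adjusted p of 0.106 in limma, 0.123 in edgeR and 0.386 in DESeq2, and KO replicate 1 lay far below the rest. With that library left out, the log2 fold change of Sycp2l was -0.36.

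Tex12, whose protein forms filaments with SYCE2 in the central element, had a mean of 369 normalized counts in WT and 338 in KO (log2 fold change -0.12, limma adjusted p = 0.778). Per kilobase it stood at 364 in WT and 332 in KO, against 2467 and 2340 for Syce2. The gene of the remaining central element partner SIX6OS1, named 4930447C04Rik in the table, had a mean of 0.308 in WT and 0.70 in KO and was not tested.

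Among strand exchange genes, Brca2, which loads recombinases onto single-stranded DNA, averaged 1485 ± 170.1 (SD, n = 3) in WT and 1175 ± 116 (SD, n = 3) in KO, with no overlap. The log2 fold change was -0.34 (SE 0.12), with an adjusted p of 0.131 in limma, 0.0999 in edgeR and 0.078 in DESeq2. The DESeq2 value was the smallest of the list in that tool.

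Sun1, the nuclear envelope protein that anchors chromosome ends, averaged 126 ± 24.1 normalized counts (SD, n = 3) in WT and 171 ± 5.50 (SD, n = 3) in KO, with no overlap. The log2 fold change of Sun1 was 0.45 (limma adjusted p = 0.167). Outside the partners of the complex and the strand exchange genes, the gene of highest mean normalized count in each role follows. These were Exo1, a crossover nuclease (1290 in WT and 1198 in KO), Mei4, needed for break formation (363 and 350), and Terb1, at chromosome ends (352 and 372). The others were Smc1b, a meiotic cohesin subunit (124 and 111), and Ythdc2, an RNA helicase of meiotic entry (109 and 98.7). From Exo1 to Ythdc2 the limma adjusted p-values were 0.666, 0.857, 0.793, 0.669 and 0.718 in that order.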

How the data were processed

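The deposited table holds a signal, read counts per gene that the authors divided by a size factor per library, per the file headers, which name Partek and DESeq2. The submitters' processing notes list STAR, cutadapt, FastQC, DESeq2 and DESeq, with mm10 and GRCm38 as builds. Tool versions and the annotation: not given in the sources used here. Dividing by the value of 1 read gave whole reads for 100% of values above 0 (tolerance 0.1 reads).

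Genes that reached a value of 1 in at least 3 libraries were compared as log2(value + 1), KO against WT, with limma-trend (limma 3.58.1, R 4.3.3), p-values being adjusted by the Benjamini-Hochberg method over all 18762 genes. Fold changes on this scale understate the change of low genes. The design first named edgeR's count test for raw counts, and limma for normalized values. edgeR 4.0.16 (789 of 13078 genes called) and DESeq2 1.42.0 on the recovered reads were alternatives, as were pseudocounts of 0.5 and 5, other filters and scalings, a replicate block and leaving out each library. Of these fits only limma was tested on simulated data, with no change placed in genes of low counts. It recovered 87% of 2-fold changes, with 5 false calls. This share is over genes of many levels, all simulated with the same dispersion. It does not give the recovery for a gene with the counts and spread of Sycp3, Syce1, Hormad1 or Hormad2.

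Exon lengths and positions come from GENCODE M21 (GRCm38). Windows of 75 bases, taken every 25, were aligned to its transcripts with minimap2 2.31-r1302, and a window was called shared where it matched a transcript of another gene with no more than 1 mismatch. Members and lists were chosen with earlier results of these data known. All 9 members are named. Of the other prophase genes, the 4 of smallest p with a mean of at least 10 are named, with the highest gene of each role. 1 of the genes this rule picks is not reported here. 4930447C04Rik was added after its values were seen.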

Additional observations from a re-analysis of the deposited data

How the results depend on the processing

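No member was called under any of the alternatives run. The 8 tested members kept the sign of their log2 fold change under each other pseudocount, filter, scaling and count tool that tested them. Leaving out 1 library changed the sign of Syce1 (range -0.155 to 0.317), Syce2 (-0.203 to 0.0149) and Hormad2 (-0.029 to 0.479), none of them called. The members' median ranged from -0.0239 to 0.0788 over these fits. The median of the prophase list, -0.0543 with all libraries, was -0.0142 with no filter, 0.00377 with values scaled to the table total, -0.0145 in DESeq2 and -0.0889 to 0.00852 without 1 library, and the cause was not tested. The count of that list called was 0 to 1 without 1 library, the call arising without KO replicate 1 alone. Deviations of same-numbered WT and KO libraries from their group means had r = -0.0766, -0.0176 and -0.0357 over the tested genes. With 3 libraries per group, these values cannot decide whether the numbers pair the samples. With a replicate block 0 members and 0 listed genes were called, with medians of 0.107 and -0.0543. Depth limits what can be said of Syce3 and Hormad1, with at most 1 and 6 reads in a library.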
